A study of Mus musculus with 6 samples.

Results

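The genes described here are those of the growth hormone receptor, of insulin-like growth factor 1 (IGF1) and its receptor, and of the proteins that carry IGF1 in blood and tissue. They are Ghr, Igf1, Igf1r, Igfals and Igfbp1 to Igfbp6. A gene was taken where a probe set on the array was annotated with its symbol and no other, and each of the 10 genes had 1 such probe set, among 15384 genes with a probe set of that kind. All 10 passed the filter on low values, among 14727 genes tested. Expression was measured in the adrenal glands of female C57Bl/6J mice aged 21 weeks on 6 Affymetrix arrays, with 3 arrays each for controls and for the group called CGP. The mothers of the CGP group received CGP 39551, an antagonist of the NMDA type of glutamate receptor, by mouth at 5 mg/kg during pregnancy and up to the end of weaning, so that the offspring were exposed during development and studied as adults. Whether the control mothers received a vehicle is not given in the labels. Each group was represented by pooled RNA of 18 animals, and it is not stated if its arrays share a single pool. The p-values below therefore rest on the spread from array to array alone, which may be technical and may hold no difference between mice.

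Growth hormone, released by the pituitary, binds its receptor Ghr on target cells and signals through the kinase Jak2 and the transcription factor Stat5b. In liver this signal switches on Igf1, the main source of the IGF1 in blood, and Igfals, the acid-labile subunit that holds IGF1 and a binding protein together in a long-lived complex. IGF1 acts on its receptor Igf1r, a tyrosine kinase related to the insulin receptor, and the binding proteins encoded by Igfbp1 to Igfbp6 set how much of it is free to do so. In the adrenal, IGFs act on cortical cells as local growth factors. Whole adrenals also come with surrounding fat and other neighbouring tissue, which express many of the same genes.

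Adrenal markers were bright in both groups. Of 10 adrenal cortex markers tested, 0 were called, and the median log2 value of the list was 13.1 to 13.2 on the control arrays and 13.2 to 13.3 on the CGP arrays. Of 10 chromaffin cell markers, 0 were called. Of 7 zona glomerulosa markers, 4 were higher on the CGP arrays and 1 was lower. The 2 groups also differed in markers of other tissues. Of 34 hepatocyte genes tested, 32 were lower on the CGP arrays and 0 were higher. The median log2 value of that list lay between 9.77 and 9.86 on the control arrays and between 8.81 and 8.90 on the CGP arrays. Of 18 adipocyte genes, 15 were higher and 0 were lower, and the median of the list went from between 10.8 and 10.9 to 11.4. In a bulk sample, fewer cells of a type and less RNA per cell cannot be told apart.

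Of the 10 genes, 2 were higher in CGP (Ghr and Igf1r), 1 was lower (Igfbp2) and 7 were not called, at a limma adjusted p under 0.05. Over all 16034 probe sets tested, 3.53% were called, 1.94% as higher and 1.59% as lower. The groups did not overlap for 6 of the 10 genes (Ghr, Igf1, Igf1r, Igfbp2, Igfbp4 and Igfbp5), against 26.3% of all probe sets tested. The median log2 fold change, given throughout as CGP minus control, was 0.02 over the 10 genes and -0.01 over all probe sets tested. Each gene lay above the background of its array on all 6 arrays, where background (6.42 to 6.65) was the 75th percentile over 127 olfactory, vomeronasal and trace amine receptor probe sets. Igfals was the closest to it.

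The promoters of the 3 called genes are shown first, since these are the genes whose RNA differed. Each is the 250 bases before the gene's first listed start in RefSeq on mouse assembly GRCm38.p6, written 5′ to 3′ on the strand of the gene, and capitals mark the letters GGGCGG (the core of the GC box, which Sp1 family factors bind) or CCAAT (the CCAAT box), on either strand.
Igfbp2, chr1:72824230-72824479, plus strand: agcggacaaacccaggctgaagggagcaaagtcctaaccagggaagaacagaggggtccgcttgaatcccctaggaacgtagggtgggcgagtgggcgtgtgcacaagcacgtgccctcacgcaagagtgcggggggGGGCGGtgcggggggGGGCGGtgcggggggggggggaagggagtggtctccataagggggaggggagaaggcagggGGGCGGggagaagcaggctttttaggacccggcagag
Igf1r, chr7:67952007-67952256, plus strand: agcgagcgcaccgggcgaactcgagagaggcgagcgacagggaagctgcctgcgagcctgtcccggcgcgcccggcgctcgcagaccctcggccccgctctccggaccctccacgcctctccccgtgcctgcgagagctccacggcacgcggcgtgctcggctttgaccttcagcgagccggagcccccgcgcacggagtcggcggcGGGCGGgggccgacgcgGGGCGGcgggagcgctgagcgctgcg
Ghr, chr15:3583353-3583602, minus strand: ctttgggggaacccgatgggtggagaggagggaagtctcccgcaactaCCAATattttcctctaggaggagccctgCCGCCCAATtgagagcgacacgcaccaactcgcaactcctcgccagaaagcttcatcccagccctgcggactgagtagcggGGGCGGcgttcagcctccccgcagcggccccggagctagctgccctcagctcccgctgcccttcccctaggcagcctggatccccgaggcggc

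The letters GGGCGG stood at all 3 of these promoters, and they stand in 32.7% of the 32851 promoter windows of that length in the RefSeq table. In the Igfbp2 window the first base of the match lay at -113, -98 and -37 relative to the start, and the GC content was 67.2%. In the Igf1r window it lay at -43 and -26, and the GC content was 77.6%, against a median of 52.4% over all windows. Before the first listed starts of the genes not called, the GC content ran from 49.6% (Igfbp6) to 73.2% (Igfbp3). The Ghr window, with a GC content of 65.6%, held GGGCGG at -93 and on the other strand at -174, the latter overlapping a CCAAT at -170, with a further CCAAT at -202. CCAAT stands in 33.8% of all windows and TATAAA, the core of the TATA box, in 12.4%; none of the 3 windows shown held TATAAA. Igfbp2 and Ghr each have another listed start, and the windows before those starts held no GGGCGG. The other Ghr window held TATAAA on the other strand at -188. Igfals, which was not called, held GGGCGG before its later listed starts but not before its first. No window of the other genes that were not called held GGGCGG. Whether the letters go with the calls was not tested. These matches are descriptions of letters and show no binding.

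Igfals and Igfbp1 are known targets of growth hormone and of insulin, respectively, and the letters searched for them are those of the STAT5 site, TTCNNNGAA, and of the FOXO site of insulin-responsive promoters, CAAAACA. They are shown here with the bases around them, since RNA of neither gene differed detectably between the groups. Both strands were searched, and capitals mark the match.
Igfals, first listed start, chr17:24877598-24877626, plus strand: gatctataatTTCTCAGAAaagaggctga
Igfals, another listed start, chr17:24878163-24878191, plus strand: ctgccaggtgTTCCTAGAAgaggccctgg
Igfbp1, chr11:7197669-7197695, plus strand: agctcacaagCAAAACAaacttatttt

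In Igfals the first base of TTCNNNGAA lay at -236 from one start and at -58 from the other, and in Igfbp1 the match to CAAAACA lay at -108. TTCNNNGAA stands in 7.02% and CAAAACA in 5.56% of all windows. No other window of the 10 genes held either. All 10 genes matched the RefSeq table, with 14 listed starts.

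Igfbp2 encodes IGF binding protein 2, a major carrier of IGFs in blood that liver and many other tissues secrete. Its log2 values were 8.24, 8.35 and 8.35 on the control arrays and 7.80, 7.71 and 7.62 on the CGP arrays. Every CGP array was below every control array, and the lowest control array lay 0.44 above the highest CGP array. The mean fell from 8.31 ± 0.06 to 7.71 ± 0.09 (SD, n = 3), a log2 fold change of -0.60 (SE 0.06, 95% confidence interval -0.74 to -0.46), or 1.52-fold lower in CGP, with a limma adjusted p of 0.00137. This was the largest difference among the 10 genes in either direction. Its limma adjusted p stayed between 6.1e-05 and 0.0377 under the 15 alternative settings tried, leaving out each array included.

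Hepatocyte markers moved the same way as Igfbp2. The median log2 fold change of the 34 hepatocyte genes was -0.89, against -0.01 over all probe sets tested, and 0 of the 34 lay under background on all 6 arrays. On all CGP arrays 3 of them did (Cyp7a1, Cyp1a2 and Uox), so that their levels there are only bounds. The median was -0.89 also with these values set to background. A median over 34 genes hardly responds to 3 of them, so this says little about values near background. Apoa2, an apolipoprotein of liver, had a log2 fold change of -1.03 and Bhmt, a liver enzyme that remethylates homocysteine, one of -1.05. The 2 hepatocyte genes not called were Cyp2e1 (0.17) and Hp (0.10). Igfbp2 fell by less than the list. The median level of the list, another measure than the median of the changes, moved by -0.98, and relative to it Igfbp2 changed by 0.38. The part of these markers in the difference of Igfbp2 was not tested.

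**Figure D1:**
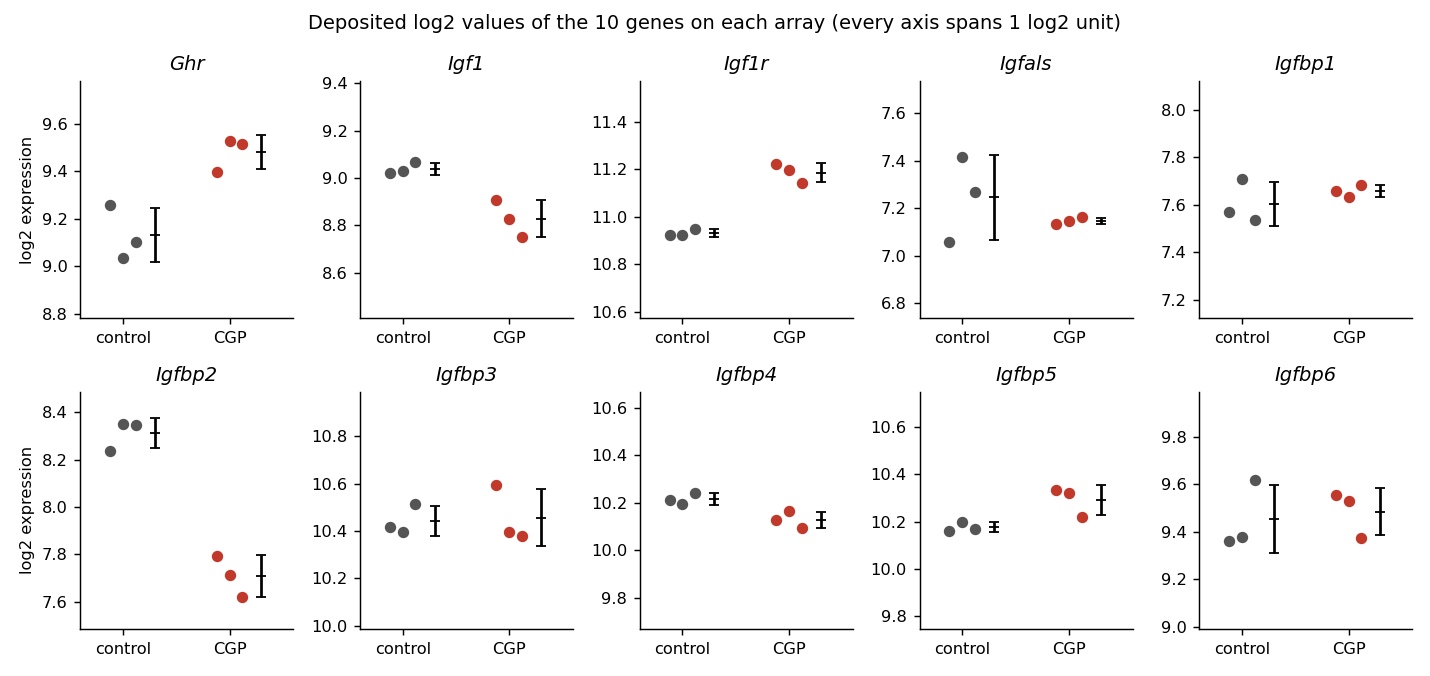
Deposited log2 values of the 10 genes, 1 panel a gene, with a point for each control and each CGP array, a dash with error bars for the mean and SD of the group and every vertical axis spanning 1 log2 unit. In Igfbp2 the 3 CGP arrays lie between 7.62 and 7.80, below the control arrays at 8.24 to 8.35, while in Ghr and Igf1r the CGP arrays lie above the control arrays.

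Ghr encodes the growth hormone receptor, which liver, fat and many other tissues carry. On the control arrays its log2 values were 9.26, 9.04 and 9.10, and on the CGP arrays 9.40, 9.53 and 9.52. The CGP arrays were all higher, and the nearest pair of arrays was control array 1 at 9.26 and CGP array 1 at 9.40. The mean rose from 9.13 ± 0.11 to 9.48 ± 0.07 (SD, n = 3), a log2 fold change of 0.35 (SE 0.07, 95% confidence interval 0.19 to 0.51), or 1.27-fold higher in CGP, with a limma adjusted p of 0.0376. That call was not kept in most of the fits that left out 1 array. Without control array 1 the limma adjusted p was 0.0120, and without any 1 of the other 5 arrays it lay between 0.0604 and 0.158, with a log2 fold change of 0.30 to 0.41 over the 6 fits.

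Igf1r encodes the receptor through which IGF1 acts. Its log2 values were 10.92, 10.92 and 10.95 on the control arrays and 11.22, 11.20 and 11.14 on the CGP arrays. The 3 control arrays lay within 0.03 of each other and all CGP arrays were above them. The mean rose from 10.93 ± 0.02 to 11.19 ± 0.04 (SD, n = 3), a log2 fold change of 0.25 (SE 0.04, 95% confidence interval 0.15 to 0.36), or 1.19-fold higher in CGP, with a limma adjusted p of 0.0240. Here too the call was lost without any 1 of 5 arrays, at a limma adjusted p between 0.0625 and 0.121, and was kept without control array 1, at 0.0373.

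Adipocyte and zona glomerulosa markers were higher on the same arrays as both receptors. The median log2 fold change of the 18 adipocyte genes was 0.45, 0 of the 18 lay under background on all 6 arrays, and the list's median relative to the control mean was 0.46, 0.47 and 0.44 on CGP arrays 1 to 3. Aqp7, the glycerol channel of fat cells, had a log2 fold change of 1.02 and Slc2a4, the insulin-responsive glucose transporter, one of 0.65. The 3 adipocyte genes not called had log2 fold changes above 0 as well. Of 11 brown adipocyte genes, 8 were higher and 1 was lower. The 8 included Ucp1, the uncoupling protein of brown fat, at 1.22, and Elovl3, a fatty acid elongase, at 0.91. The 1 that fell was Kng2, a kininogen gene, by 0.45 on the log2 scale. The median log2 fold change of the 7 zona glomerulosa genes was 0.30, with 0 under background on all 6 arrays. Cyp11b2, aldosterone synthase, was higher by 0.50, while Nr4a2, a nuclear receptor, had a log2 fold change of -0.46. The median of that list lay between 10.88 and 10.94 on the control arrays and between 11.17 and 11.29 on the CGP arrays. The median level of the adipocyte list, another measure than the median of the changes, moved by 0.55. Relative to that level on each array, Ghr changed by -0.20 and Igf1r by -0.30. The part of these markers in the differences of Ghr and Igf1r was not tested.

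**Figure D2:**
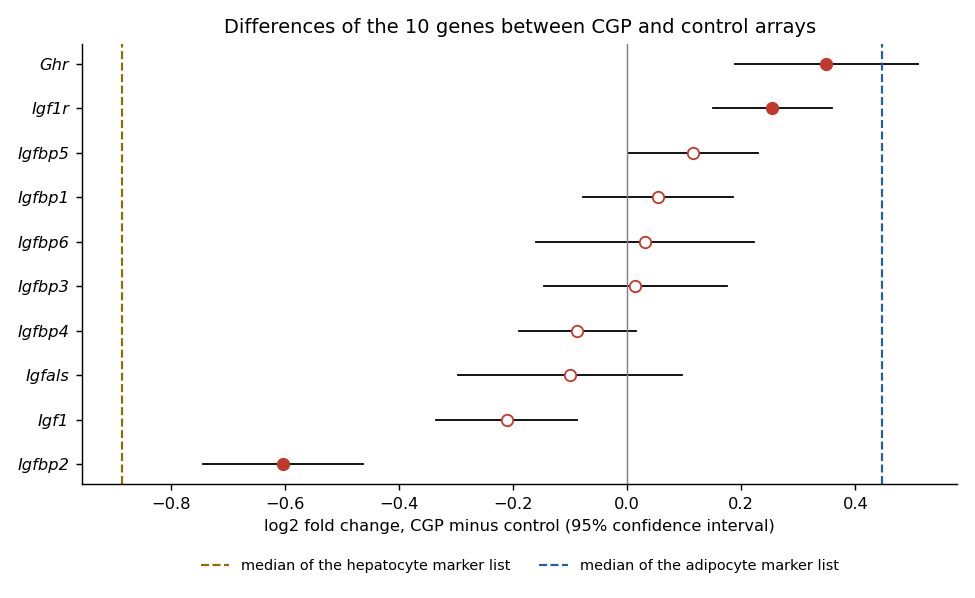
Log2 fold change of each of the 10 genes (CGP minus control, horizontal axis) with its 95% confidence interval, filled points for genes called at a limma adjusted p under 0.05, and dashed lines at the median of the hepatocyte list (-0.89) and of the adipocyte list (0.45). Igfbp2 stands at -0.60, Ghr at 0.35 and Igf1r at 0.25, and the other 7 genes lie between -0.21 and 0.12.

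Igf1 encodes the growth factor itself, made by hepatocytes for the circulation and by fibroblasts, macrophages and fat cells locally. Its log2 values were 9.02, 9.03 and 9.07 on the control arrays and 8.91, 8.83 and 8.75 on the CGP arrays. The groups did not overlap, with all CGP arrays lower. The means were 9.04 ± 0.03 in control and 8.83 ± 0.08 in CGP (SD, n = 3), a log2 fold change of -0.21 (SE 0.05, 95% confidence interval -0.33 to -0.09). The limma adjusted p was 0.0786, so the difference did not pass the threshold, and the unadjusted p from limma was 0.00424. Under 3 of the alternative settings it did pass, at a limma adjusted p of 0.0490 with a filter at log2 7, 0.0290 with a variance trend and robust prior and 0.0232 with array weights. Beside the hepatocyte and adipocyte values given above, 0 of 11 macrophage genes were called, with a median of -0.01, and of 14 fibroblast genes 3 were higher and 1 was lower, with a median of 0.11. Their part in the values of Igf1 was not tested.

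Igfals was not called. Its log2 values were 7.06, 7.41 and 7.27 on the control arrays and 7.14, 7.15 and 7.16 on the CGP arrays. The CGP arrays lay inside the range of the control arrays, with an SD of 0.01 against 0.18. The log2 fold change was -0.10 (SE 0.08, 95% confidence interval -0.30 to 0.10), with a limma adjusted p of 0.554. It was -0.19 without control array 1 (limma adjusted p 0.0937) and -0.02 without control array 2 (0.933).

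Igfbp1, a binding protein that hepatocytes secrete and insulin represses, was not called either. Its log2 values were 7.57, 7.71 and 7.54 in control and 7.66, 7.63 and 7.68 in CGP, so that the groups overlapped. The log2 fold change was 0.05 (SE 0.06, 95% confidence interval -0.08 to 0.19), with a limma adjusted p of 0.639. It was 0.11 without control array 2 (limma adjusted p 0.333) and 0.02 without control array 3 (0.913). Both genes are made mainly by hepatocytes, and both had low signals: Igfals lay 0.57 to 0.77 and Igfbp1 0.94 to 1.22 above background on the log2 scale.

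**Figure D3:**
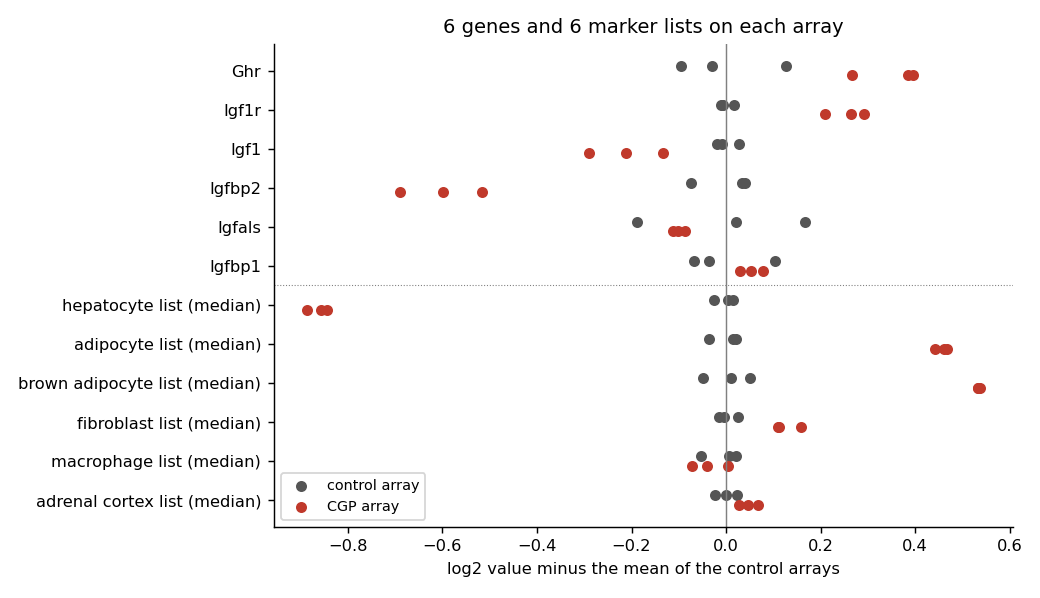
Log2 value of 6 genes and median of 6 marker lists on each array, minus the mean of the control arrays (horizontal axis), with control and CGP arrays marked apart. The hepatocyte list lies between -0.89 and -0.84 on the CGP arrays and the adipocyte list between 0.44 and 0.47.

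The other binding proteins were not called. Igfbp3 encodes the main carrier of IGF1 in adult blood, which forms the complex with the Igfals product. Values of 10.42, 10.40 and 10.52 in control and of 10.59, 10.40 and 10.38 in CGP were measured on the log2 scale. The control arrays lay inside the wider range of the CGP arrays, with a log2 fold change of 0.01 (95% confidence interval -0.15 to 0.17) and a limma adjusted p of 0.931. Its sign turned under 3 of the 15 alternatives.

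Igfbp4, an inhibitory binding protein that the protease Pappa cleaves, had values of 10.21, 10.19 and 10.24 in control and 10.13, 10.16 and 10.10 in CGP. The groups did not overlap, but the log2 fold change was only -0.09 (95% confidence interval -0.19 to 0.02), with a limma adjusted p of 0.327. Igfbp5, which binds extracellular matrix as well as IGFs, had values of 10.16, 10.20 and 10.17 in control and 10.33, 10.32 and 10.22 in CGP. Its groups did not overlap either, with CGP higher by a log2 fold change of 0.12 (95% confidence interval 0.00 to 0.23). The limma adjusted p was 0.252 and the unadjusted one 0.0468.

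Igfbp6, which prefers IGF2 over IGF1, had values of 9.36, 9.38 and 9.62 in control and 9.55, 9.53 and 9.37 in CGP. The groups overlapped, with a log2 fold change of 0.03 (95% confidence interval -0.16 to 0.22) and a limma adjusted p of 0.865, and its sign turned under 4 of the 15 alternatives. The confidence intervals of these 4 genes reach from -0.19 to 0.23 on the log2 scale between them, so equal expression was not shown.

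Neighbouring genes of the family were compared within each array. On the RefSeq map Igfbp2 lies next to Igfbp5, and Igfbp1 next to Igfbp3. The difference between Igfbp2 and Igfbp5 on the log2 scale changed by -0.72 from control to CGP and did not overlap between the groups, with an exact two-sided permutation p of 0.1, the smallest that 3 arrays against 3 can give (0.2 after adjustment over 4 pairs). For Igfbp1 and Igfbp3 the change was 0.04, with an exact permutation p of 0.8 (adjusted 0.8). Receptor and ligand were compared in the same way. The difference between Ghr and Igf1 changed by 0.56, also without overlap, with an exact permutation p of 0.1 (adjusted 0.2). That between Igf1r and Insr, the insulin receptor, changed by 0.11, with an exact permutation p of 0.3 (adjusted 0.4). No pair could have passed a threshold of 0.05 with this number of arrays. In Igfbp2 with Igfbp5 and in Ghr with Igf1, each gene alone already did not overlap between the groups, in opposite directions. The lack of overlap and the exact permutation p of 0.1 for these pairs follow from that and are no further result.

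The rest of the pathway was followed in a list of 56 genes, of which 53 had a probe set with 1 symbol and 51 were tested. Of these, 3 were higher in CGP, 1 was lower and 47 were not called, and the groups did not overlap for 14. Over all probe sets tested, 3.53% were called and 26.3% did not overlap, so the share without overlap in the list was near that of all probe sets. The median log2 fold change was 0.00044 in this list, and 5 of the 51 lay under background on all 6 arrays. Among 8 ligands and receptors, 0 were called. Gh itself, the pituitary hormone, lay under background on all 6 arrays, with means of 6.27 in control and 6.19 in CGP. Igf2, the fetal growth factor, had a log2 fold change of -0.06 (limma adjusted p 0.551) and Insr one of 0.15 (0.253). Igf2r, the receptor that clears IGF2, did not overlap between the groups, with means of 9.86 and 10.04, but its limma adjusted p was 0.0641.

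Among 11 genes of growth hormone signalling and its feedback, 0 were called, with a median of -0.06. Jak2, the kinase bound to the receptor, had a log2 fold change of 0.12 (limma adjusted p 0.310), and Stat5b, the factor it activates, one of 0.04 (0.624). Socs2, the feedback inhibitor that Stat5b induces, had one of -0.06 (0.542). Cish, another Stat5 target, was picked out after its values were seen: its groups did not overlap, at a log2 fold change of -0.15 (0.126).

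Among 16 genes of IGF receptor signalling, 1 was called and the median was 0.04. It was Pik3ca, the catalytic subunit of phosphatidylinositol 3-kinase, with means of 8.87 ± 0.09 in control and 9.16 ± 0.06 in CGP (SD, n = 3) and a log2 fold change of 0.28 (limma adjusted p 0.0488). The call was lost without any 1 of the 6 arrays, at a limma adjusted p of 0.0502 to 0.194. With no filter, with all probe sets, against a minimum of 1.2-fold and with the replicate block it was lost as well. Pik3r1, the regulatory subunit of the same enzyme, was picked out after its values were seen, at 0.25 with a limma adjusted p of 0.0656.

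Among 11 relatives of the binding proteins, their proteases and inhibitors, 1 was called and the median was 0.01. It was Adam12, a membrane metalloprotease that can cleave IGF binding proteins, with means of 6.64 ± 0.07 in control and 7.02 ± 0.08 in CGP and a log2 fold change of 0.38 (limma adjusted p 0.0157). Adam12 lay under background on 1 control array, and its call was lost without CGP array 1 (0.0587) or CGP array 3 (0.0838). Against a minimum of 1.2-fold and with the replicate block the call was lost as well. Igfbp7, a relative that binds IGFs weakly, had a log2 fold change of 0.03 (limma adjusted p 0.778).

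Of 5 genes that growth hormone controls in liver, 1 was higher and 1 was lower. Mup3, a major urinary protein of hepatocytes, fell from 9.65 ± 0.05 to 8.30 ± 0.09 (SD, n = 3), a log2 fold change of -1.35 or 2.54-fold lower, with a limma adjusted p of 4.3e-05. The Mup genes are near-identical copies, so its probe set may read several of them. Bcl6 is a transcriptional repressor that growth hormone lowers in liver and that many other cells express. It rose from 8.83 ± 0.03 to 9.13 ± 0.02, a log2 fold change of 0.30 (limma adjusted p 0.00949). The call was lost without CGP array 2 (0.0669) or CGP array 3 (0.0576), against a minimum of 1.2-fold and with the replicate block. Mup3 fell beside the hepatocyte list, and the part of that list in its difference was not tested.

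**Figure D4:**
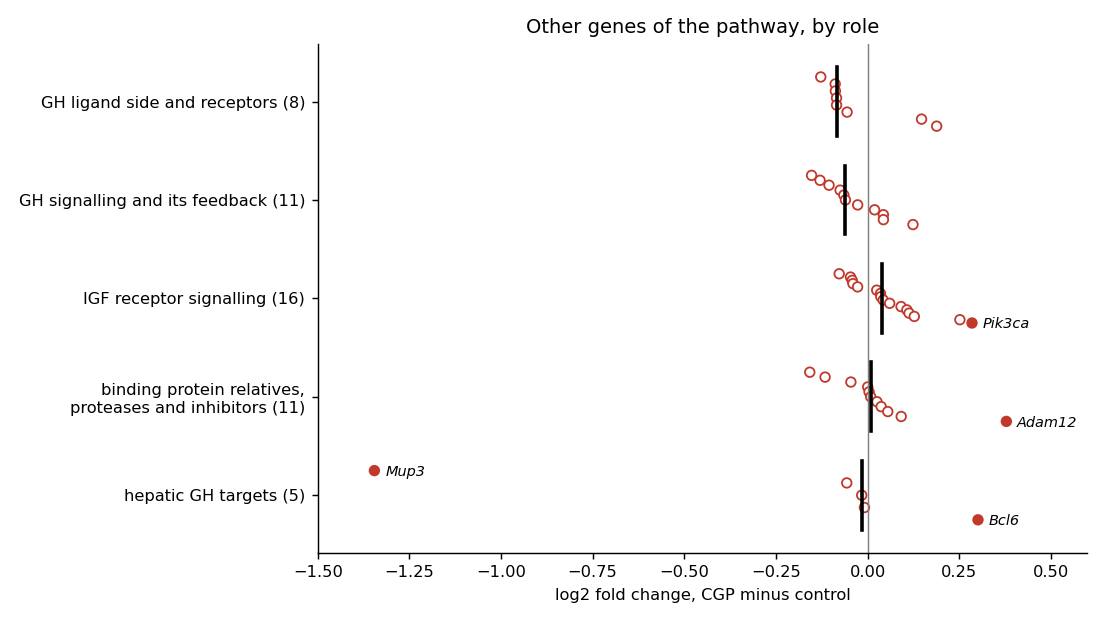
Log2 fold change (CGP minus control, horizontal axis) of the 51 other pathway genes, 1 point a gene, in rows by role with the number of genes in brackets, filled points for called genes and a vertical bar at the median of each row. Mup3, at -1.35, stands apart from the rest, which lie between -0.16 and 0.38.

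**Figure D5:**
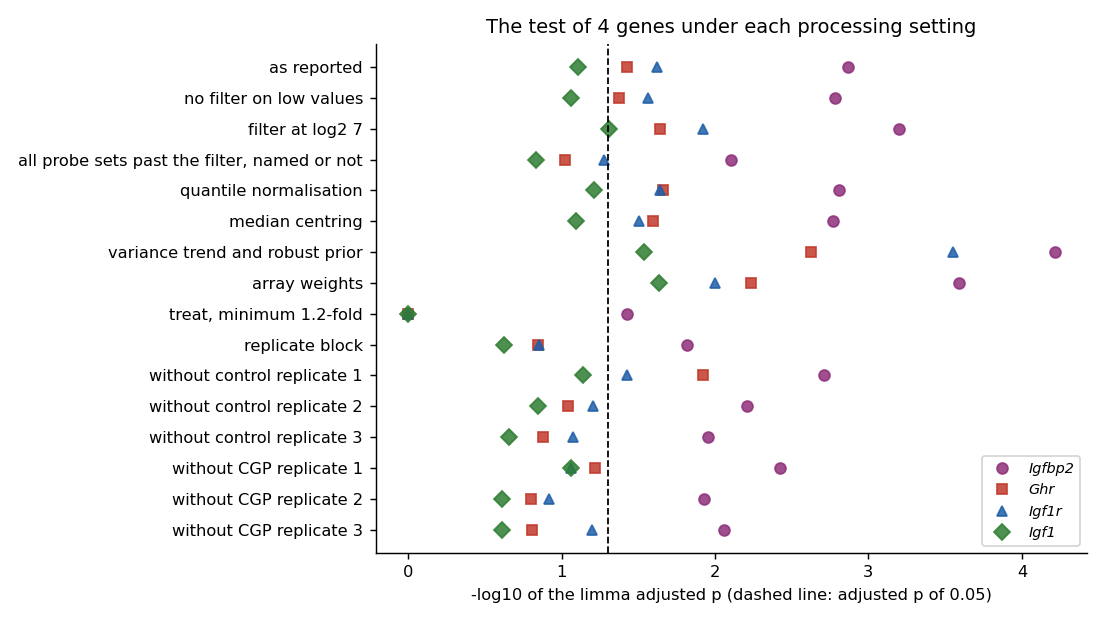
Test of Igfbp2, Ghr, Igf1r and Igf1 under the main setting and each alternative, as -log10 of the limma adjusted p (horizontal axis), with a dashed line at an adjusted p of 0.05. Igfbp2 lies past the line in every row, while Ghr and Igf1r fall short of it in 8 of the 15 alternatives each and Igf1 passes it in 3.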

How the data were processed

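The sources were the labels of 6 arrays and 1 table that the authors deposited, with log2 expression values of 25150 probe sets. The submitters' processing notes name RMA (background correction, quantile normalisation and 1 summary value per probe set) and Partek but no version; annotation and build are not stated there. No further normalisation was applied. Array medians lay between 7.91 and 7.96.

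Groups came from the sample titles. Names came from the platform annotation, by which 16769 probe sets had 1 symbol, 1031 several and 7350 none, and Entrez numbers found 16723 of the named ones in RefSeq (GRCm38.p6). Among those with 1 symbol, a probe set was tested when 3 or more arrays, of either group, reached a log2 value of 6, which left out 735.

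CGP and control arrays were compared with a two-sided limma test (version 3.58.1, R 4.3.3; lmFit and eBayes, without covariates), with Benjamini-Hochberg adjustment over the 16034 probe sets tested. The script was tested on simulated data. SD was taken over a group's arrays, and SE is limma's moderated standard error. Differences between pairs of genes were tested by exact permutation. Figures were drawn with matplotlib 3.10.9.

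The 10 genes were named whatever their values. Of the pathway list, the called genes and Gh, Igf2, Insr, Igf2r, Jak2, Stat5b and Socs2 were named, and of each marker list up to 2 genes with the smallest adjusted p. Igfbp7, Ghrh, Kng2, Cyp2e1, Hp, Cyp7a1, Cyp1a2, Uox, Clec4f, Marco and the genes said to be picked out fall outside that rule. The genes, lists and rule were chosen with earlier results of these data known. The pathway list also held Prl, Prlr and Hsd3b5, which were not analysed here, and Ghrh and Pappa2, which did not pass the filter. Arrays have no read depth, and their number limits the precision. The alternatives were no filter and a filter at log2 7, all probe sets with or without a symbol, quantile normalisation, median centring, a variance trend with robust prior, array weights, a minimum of 1.2-fold (treat), the replicate number as a block, and each array left out in turn.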

Additional observations from a re-analysis of the deposited data

How the results depend on the processing

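Of the 10 genes, Igfbp2 kept its direction and its call in all 15 alternatives. Ghr and Igf1r kept their directions in all 15 and lost the call in 8 each. These were the fit to all probe sets, named or not (limma adjusted p 0.0951 and 0.0532), the test against a minimum of 1.2-fold (1 for both), the replicate block (0.142 and 0.139) and leaving out any 1 array other than control array 1. Igf1 was lower in all 15.

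The number of the 10 genes called was 1 with all probe sets, 1 against a minimum of 1.2-fold and 1 with the replicate block, and 1 to 3 when 1 array was left out. It was 4 with a filter at log2 7, a variance trend and robust prior or array weights, and 3 with the other settings. The number of the 51 pathway genes called was 1 against a minimum of 1.2-fold, 1 with the replicate block, and 1 to 4 when 1 array was left out. It was 6 with a variance trend and robust prior or array weights, 5 with a filter at log2 7, quantile normalisation or median centring, and 3 with no filter or all probe sets, against 4 as reported. With the filter at log2 7 only 42 of the pathway genes were tested. Over all probe sets, the 566 calls became 1261 with a variance trend and robust prior, 1665 with array weights, 126 against a minimum of 1.2-fold and 224 with the replicate block (68 higher and 156 lower). Leaving out 1 array gave 236 (without CGP array 2) to 1099 (without control array 1). With array weights the log2 fold change of Igfbp3 turned to -0.0474 and that of Igfbp6 to -0.0435. Leaving out 1 array gave -0.0547 to 0.0522 for Igfbp3 and -0.0137 to 0.114 for Igfbp6. The cause was not tested.

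Arrays of the same number did not deviate together (correlations over probe sets of -0.36, -0.17 and -0.12), so the numbers were not taken as pairs. A fit without an array leaves 2 arrays in its group. Signal over background limits Igfals and Igfbp1, which lay no more than 0.77 and 1.22 above it on the log2 scale. Igfbp2 lay 1.16 to 1.75 above it, so its lowest array was as close to background as some arrays of Igfbp1. The effect of this on the size of its fall was not tested.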

Other observations

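Other cell types of the sample were read from marker lists that bear on where IGF genes are made. Of 12 endothelial genes, 11 macrophage genes, 8 genes of smooth muscle and pericytes and 7 mesothelial genes, 0 were called, by limma at an adjusted p under 0.05. Clec4g, a lectin of liver sinusoidal endothelium, fell by 0.44 on the log2 scale (limma adjusted p 0.00488), the 1 gene called among 5 of that cell type. It lay above background on every array, but its CGP mean of 6.60 was inside the range of the array backgrounds (6.42 to 6.65). Folr2, a folate receptor of tissue macrophages that Kupffer cells also carry, was higher by 0.27 (0.0156), the 1 gene called among 3, but lay under background on 2 of the 3 control arrays. The other 2 genes of that list, Clec4f and Marco, lay under background on all 6 arrays, at -0.08 and -0.06. Mbp, a myelin protein, rose by 0.24 and was the 1 gene called among 3 Schwann cell genes. Ghrh, the hypothalamic releasing hormone, lay under background on all 6 arrays, with means of 6.04 in control and 5.84 in CGP.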
